A study of Mus musculus with 20 samples.

Results

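The genes described here encode heat shock proteins: the stress-inducible Hsp70 pair Hspa1a and Hspa1b, the constitutive Hsp70 Hspa8, the Hsp110 gene Hsph1, the Hsp90 gene Hsp90aa1, the Hsp40 gene Dnajb1, the small heat shock protein gene Hspb1, and Hspd1 and Hspe1, the chaperonin Hsp60 and its partner Hsp10. The first 7 encode proteins of the cytosol and nucleus, whereas Hsp60 and Hsp10 work mainly in mitochondria. The genes were listed by name, with the probe sets whose annotation gives exactly 1 of those symbols, and the probe set of highest mean over all 20 arrays was used where a gene had several. Of the 10 genes listed, 9 had such a probe set, and all 9 passed the filter on dim genes (a mean log2 level of at least 3.86). They stand among 16638 genes tested of 22180 with a named probe set. Hsp90ab1, the other Hsp90 gene on the list, was not analysed here. The members were chosen by name, selected on the values of Hspa1a, which had been seen to differ between genotypes in freshly sorted progenitors, and the genotype values of those cells are therefore given as a description, with no p-value.

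Heat shock proteins are chaperones that hold, fold or clear other proteins. When proteins unfold under heat or other stress, the transcription factor HSF1 is released from chaperones, forms trimers and binds heat shock elements, inverted repeats of nGAAn units, in front of the inducible genes. In mouse, Hspa1a and Hspa1b are adjacent, intron-poor genes that respond steeply to this pathway, whereas Hspa8 is made at all times. In human erythroid precursors, Hsp70 is known to protect the transcription factor GATA1 from cleavage by caspases.

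RNA came from bone marrow cells of female mice on a C57BL/6 background and was amplified from 1 to 5 ng before single-channel hybridization. Cells of mice with CreER and floxed Rptor (CreER-Rptor-flox/flox, titled CreER-Raptor and called Rptor cells here) were set beside wild-type (WT) cells in 3 populations. Rptor encodes Raptor, the scaffold of the growth kinase complex mTORC1. The groups were lineage-negative (Lin-) cells cultured for 12 h with 10 ng/ml macrophage colony-stimulating factor (M-CSF), with 4 Rptor and 4 WT arrays, freshly sorted granulocyte-macrophage progenitors (GMPs), with 3 Rptor and 3 WT arrays, and freshly sorted common myeloid progenitors (CMPs), with 3 Rptor and 3 WT arrays. The labels used here state neither whether and when Cre was induced, nor the promoter of CreER, nor whether WT mice carried it. Separate animals are not named for the replicates, and the p-values therefore reflect variation between these samples alone, part or all of which may be technical. In cells taken in bulk, fewer cells that make a transcript and less of it per cell cannot be told apart.

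The upstream sequences of the Hsp70 pair are shown because both genes moved together on the arrays described below. Sequences are from RefSeq (GRCm38.p6), 5′ to 3′ on the gene's strand, and capitals mark matches to a paired heat shock unit, searched as GAANNTTC and TTCNNGAA, each of which is its own reverse complement and so covers both strands. The 250 bases before the start of Hspa1a lie at chr17:34972157-34972406 (minus strand) and those of Hspa1b at chr17:34959239-34959488 (minus strand).
Hspa1a: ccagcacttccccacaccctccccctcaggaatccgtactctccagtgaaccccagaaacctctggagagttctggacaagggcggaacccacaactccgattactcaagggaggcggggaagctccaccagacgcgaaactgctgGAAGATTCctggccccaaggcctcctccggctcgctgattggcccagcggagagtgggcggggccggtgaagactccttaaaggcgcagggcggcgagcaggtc
Hspa1b: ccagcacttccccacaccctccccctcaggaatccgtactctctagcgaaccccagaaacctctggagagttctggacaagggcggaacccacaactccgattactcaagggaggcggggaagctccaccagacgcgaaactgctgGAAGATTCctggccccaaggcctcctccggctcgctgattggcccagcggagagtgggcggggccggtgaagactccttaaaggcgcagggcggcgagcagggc
Of the 250 bases, 247 were identical (98.8%), and the substitutions from Hspa1a to Hspa1b, counted from 1 at the 5′ end of the window, were C44T, T47C and T249G. Each window held 1 match, which starts 104 bases before the transcript start. The genes themselves lie at chr17:34969359-34972156 and chr17:34956429-34959238.

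Stretches of the windows of 4 other members are shown to set their motif matches beside those of the Hsp70 pair. Hspd1 and Hspe1 are transcribed away from each other, and the 30 bases at chr1:55088053-55088082 are given on each strand. The stretch lies between the Hspe1 start at 55088148 and the Hspd1 start at 55087932, and inside the span of Hspd1 from its other start at 55088243. The stretches of Hspb1 (chr5:135887786-135887845, plus strand) and Hsph1 (chr5:149636351-149636380, minus strand) follow.
Hspe1, plus strand: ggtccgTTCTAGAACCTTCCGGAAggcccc
Hspd1, minus strand: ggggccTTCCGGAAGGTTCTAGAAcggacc
Hspb1: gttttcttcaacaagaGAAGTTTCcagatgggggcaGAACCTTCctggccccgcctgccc
Hsph1: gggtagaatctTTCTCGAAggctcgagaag
The stretch shared by Hspe1 and Hspd1 held 3 overlapping pairs, starting 89, 84 and 79 bases before the Hspe1 start, and so contains the 13-base triple unit. The window of the other Hspd1 start held 0 pairs. Hspb1 held 2 pairs, at 117 and 97 bases, and Hsph1 held 1, at 33 and 54 bases from the 2 starts that had a window. The Hsph1 stretch lies inside the RefSeq span of Hsph1, which reaches 149636498, upstream of both of these starts. Neither of the 2 Dnajb1 windows held these letters. The 3 remaining listed genes, Hspa8, Hsp90aa1 and Hsp90ab1, had no window here and were not searched. A pair occurred in 12.8% of 32851 RefSeq windows of 250 bases and a triple in 0.466%. A match describes the sequence and is not a measured binding site.

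The arrays of a group correlated at 0.978 to 0.993, and array medians lay between 4.76 and 4.91. Rptor itself read 6.83 to 7.06 in Rptor and 6.95 to 7.34 in WT Lin- + M-CSF cells, 8.85 to 9.25 in Rptor and 9.17 to 9.44 in WT GMPs, and 8.20 to 8.45 in Rptor and 8.51 to 8.72 in WT CMPs. None of these 3 differences passed the limma test (adjusted p = 0.305, 0.465 and 0.163), and whether the probes lie in the floxed part was not examined. Of the myeloid progenitor markers, all 6 were measured and their mean level was 10.7 to 11.6 in every array. The mean of the 4 measured B cell markers was 6.33 to 7.28 in Rptor and 6.40 to 7.07 in WT Lin- + M-CSF cells, against 4.88 to 5.49 in GMPs and CMPs of both genotypes.

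Hspa1a and Hspa1b were low in freshly sorted Rptor progenitors and high, but very uneven, in WT progenitors. Hspa1a read 3.80, 3.59 and 3.89 on the log2 scale in Rptor GMPs, against 5.32, 8.60 and 6.81 in WT GMPs. In CMPs it read 4.02, 3.71 and 3.99 in Rptor cells, against 4.81, 8.27 and 6.22 in WT cells. Every Rptor array lay below every WT array in both populations, and the Rptor arrays spanned 0.30 log2 units in GMPs and 0.31 in CMPs. The difference of means was -3.15 (8.9-fold) in GMPs and -2.53 (5.8-fold) in CMPs. The Rptor GMP mean of 3.76 lay below the level of 3.86 that the filter asks of the mean over all arrays, and whether the signal there was above background was not assessed.

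Hspa1b, whose protein is nearly the same as that of Hspa1a, gave the same picture. It read 4.08, 3.82 and 3.91 in Rptor GMPs, against 4.42, 7.05 and 5.40 in WT GMPs. Its CMP values were 4.19, 4.13 and 3.95 in Rptor cells and 5.19, 6.86 and 5.97 in WT cells. The groups did not overlap in either population, but the lowest WT GMP array (4.42) was not far above the highest Rptor one (4.08). The difference of means was -1.68 in GMPs and -1.92 in CMPs. Because the 2 genes are near-identical copies, signal of one may reach the probes of the other. A probe set annotated to both genes together stayed between 3.23 and 4.11 on all 20 arrays and did not follow the genotype.

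**Figure D1:**
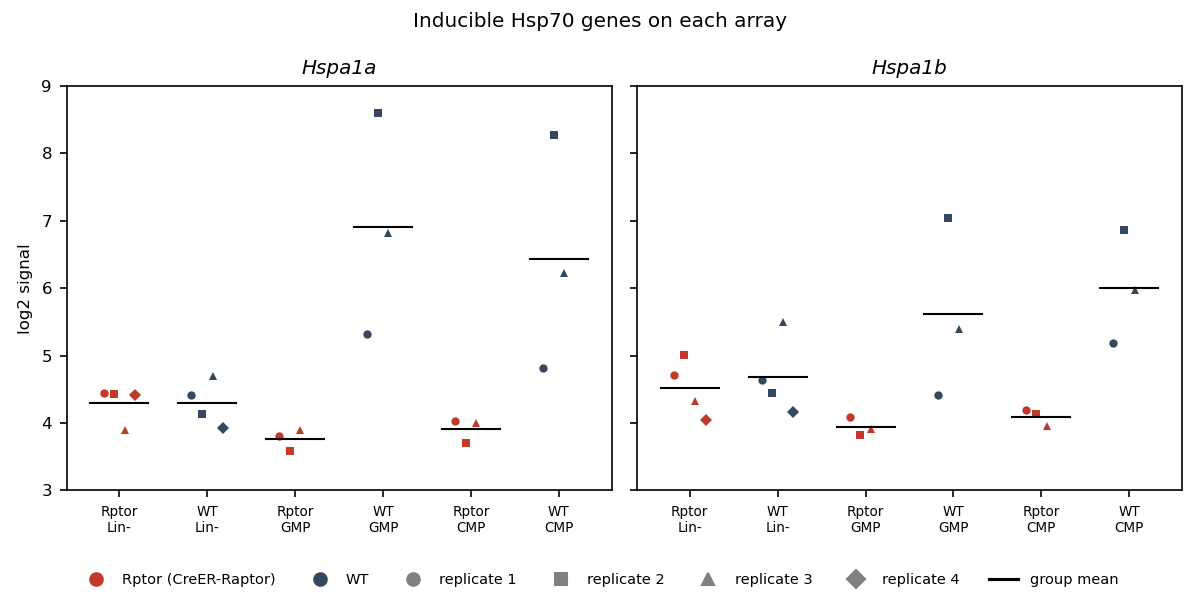
The log2 signal (y axis) of Hspa1a (left) and Hspa1b (right) on each array, by group (x axis; Rptor red, WT dark blue). Marker shapes are replicate numbers and black lines are group means. The WT GMP and WT CMP arrays spread over several log2 units above the tight Rptor arrays, while both genotypes overlap in Lin- + M-CSF cells.

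The height of the WT values rests on single arrays. Replicate 2 was the highest, replicate 3 the middle and replicate 1 the lowest WT array for both genes in both populations, although nothing in the labels says that a number marks a shared animal or day. The SD of Hspa1a was 1.64 in WT GMPs and 1.74 in WT CMPs (n = 3 each), and 99.98% of the tested genes had a smaller SD in either group. The median SD over tested genes was 0.110 in WT GMPs and 0.114 in WT CMPs. Without replicate 2 of the WT GMPs, the GMP difference was -2.31 for Hspa1a and -0.97 for Hspa1b. Without replicate 2 of the WT CMPs, the CMP difference was -1.61 for Hspa1a and -1.49 for Hspa1b. The Rptor arrays stayed below the WT arrays that were left.

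Other transcripts moved with these groups, and their part in the Hsp70 values was not tested. Fosb, an immediate early gene that cells switch on within minutes of stimulation, read 5.75, 5.61 and 5.72 in Rptor GMPs and 6.25, 7.08 and 7.70 in WT GMPs. It read 5.66, 5.02 and 5.40 in Rptor CMPs and 5.92, 6.34 and 7.41 in WT CMPs. Its highest WT array was replicate 3 in both populations. The immediate early genes did not move one way. Junb was higher on every Rptor than on every WT array in both populations, at 9.11, 9.25 and 9.09 in Rptor GMPs and 8.24, 8.11 and 8.32 in WT GMPs. The mean level of the 6 monocyte and macrophage markers was 8.26 to 8.38 in Rptor and 9.33 to 9.39 in WT GMPs, and 7.99 to 8.19 in Rptor and 9.03 to 9.17 in WT CMPs. Cd68 of that list was higher on every Rptor than on every WT GMP array, and the rest of the list was lower. The mean of the 5 mature neutrophil markers was 8.48 to 8.63 in Rptor and 9.61 to 10.1 in WT GMPs, and 7.98 to 8.12 in Rptor and 9.73 to 10.1 in WT CMPs. In GMPs that list was split. S100a8 was higher on every Rptor array, at 11.49, 11.63 and 11.60 against 10.96, 11.20 and 11.04 in WT GMPs. S100a9 overlapped there, and Ltf, Camp and Mmp8 were lower on every Rptor array. The mean of the 4 measured erythroid markers was higher in Rptor cells, at 6.05 to 7.13 in Rptor and 5.45 to 5.66 in WT GMPs, and at 8.92 to 9.48 in Rptor and 7.92 to 8.05 in WT CMPs. All 4 were higher on every Rptor array in CMPs. In GMPs only Car1 was, at 8.96, 10.37 and 8.40 in Rptor and 6.21, 6.76 and 6.98 in WT cells, while Klf1, Gata1 and Epor overlapped. Array by array, the mature neutrophil mean was 9.61, 10.1 and 9.77 in WT GMPs and 9.73, 10.1 and 9.99 in WT CMPs, highest on replicate 2 and lowest on replicate 1 in both, as for Hspa1a. No other marker list had that order in both populations. The monocyte and macrophage mean was 9.17, 9.05 and 9.03 in WT CMPs, highest on replicate 1, and the megakaryocyte mean was highest on replicate 3 in both. The means of the myeloid progenitor, B cell, and endothelial and stromal markers were also lower on every Rptor than on every WT array in both populations, for instance at 5.93 to 5.99 in Rptor and 6.19 to 6.28 in WT GMPs for the 4 endothelial and stromal markers. In GMPs, Cd34, Cd79b and Pecam1 were the only genes of these lists that were lower on every Rptor array. Kit and Ctsg were higher there on every Rptor array, and the remaining genes overlapped.

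Hsph1, a nucleotide exchange factor that resets Hsp70, was also lower in Rptor GMPs. It read 7.95, 7.74 and 7.73 in Rptor GMPs, against 8.74, 8.72 and 8.74 in WT GMPs. The groups stood apart by a gap far wider than either group's range, and the difference of means was -0.93. Unlike the Hsp70 pair, its WT arrays were nearly identical (SD 0.012, n = 3). In CMPs Hsph1 read 9.14, 9.04 and 8.22 in Rptor cells and 9.11, 9.07 and 9.11 in WT cells, so that the groups overlapped. The CMP difference of -0.30 rests on Rptor replicate 3, without which it was -0.0058.

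The other members differed little between genotypes in fresh progenitors. Dnajb1, the Hsp40 partner that delivers clients to Hsp70, read 7.82, 7.98 and 7.73 in Rptor GMPs and 7.87, 8.00 and 7.96 in WT GMPs. In CMPs it read 7.75, 8.17 and 7.75 in Rptor cells and 7.78, 7.68 and 7.84 in WT cells. Hsp90aa1, the inducible Hsp90, read 8.16, 8.31 and 8.31 in Rptor GMPs and 8.23, 8.47 and 8.26 in WT GMPs. The 2 genotypes overlapped for both genes, also for Hsp90aa1 in CMPs, where the values were 8.52, 8.40 and 8.27 in Rptor cells and 8.43, 8.40 and 8.39 in WT cells. Hspe1 was the exception in GMPs, with 9.53, 9.38 and 9.51 in Rptor cells against 9.24, 9.33 and 9.37 in WT cells, so that every Rptor array lay just above every WT array, with a difference of means of 0.16. Hspd1 overlapped between genotypes in both populations, with differences of 0.079 in GMPs and 0.20 in CMPs. The used probe set of Hspa8 also overlapped, with -0.034 and -0.026, and its other probe sets are described below. In CMPs Hspe1 overlapped too, at 9.49, 9.63 and 9.58 in Rptor cells and 9.31, 9.51 and 9.65 in WT cells. Hspb1 overlapped between genotypes at 4.15 to 4.55 in Rptor and 4.18 to 4.53 in WT GMPs, and at 4.13 to 4.89 in Rptor and 4.42 to 4.78 in WT CMPs.

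By the same limma fit, 3 of 9 members were lower and 0 higher in Rptor than in WT GMPs (Hspa1a, Hspa1b and Hsph1), where 11.9% of all tested genes were called in either direction. In CMPs 2 of 9 were lower and 0 higher (Hspa1a and Hspa1b), where 11.4% of all tested genes were called. The genotypes had no overlapping arrays for 4 of 9 members in GMPs, against 32.4% of tested genes, and for 2 of 9 in CMPs, against 30.8%. Nothing is read from these counts, since the list was drawn up from these comparisons.

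**Figure D2:**
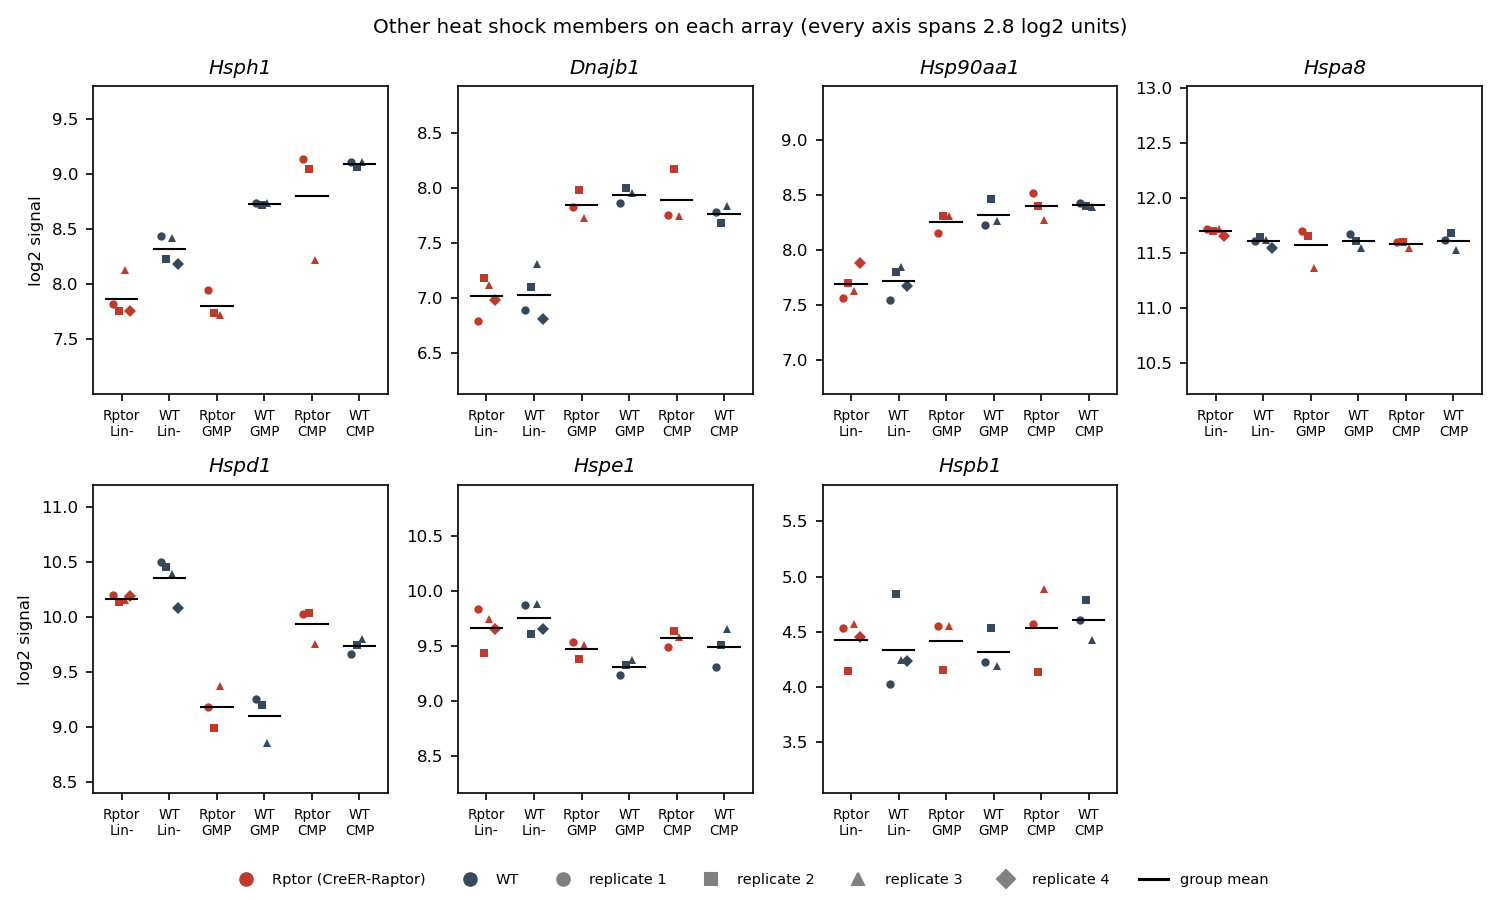
The log2 signal (y axis, each spanning 2.8 units) of the other 7 members on each array, by group (x axis; Rptor red, WT dark blue; shapes are replicate numbers, black lines group means). Hsph1 separates the genotypes in GMPs and in Lin- + M-CSF cells, Dnajb1 and Hsp90aa1 are lower in cultured cells of both genotypes, and Hspd1 is lowest in GMPs.

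In Lin- cells after 12 h with M-CSF, the Hsp70 genotype pattern of the fresh cells was not seen. Hspa1a read 4.44, 4.43, 3.89 and 4.41 in Rptor cells and 4.41, 4.14, 4.69 and 3.92 in WT cells. The genotypes overlapped fully, and the difference was 0.0045 ± 0.54 (SE of the limma fit, adjusted p = 0.997). That SE pools the spread of all 6 groups, among them the uneven WT GMPs and CMPs. Within these cultures the SD of Hspa1a was 0.27 in Rptor and 0.33 in WT cells (n = 4 each). Hspa1b read 4.71, 5.01, 4.33 and 4.04 in Rptor cells and 4.64, 4.44, 5.50 and 4.16 in WT cells (difference -0.16 ± 0.40, limma adjusted p = 0.858). Whether the genotype difference changes between populations was not tested.

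Hsph1 was the member that passed the test in these cultures. It read 7.82, 7.76, 8.13 and 7.76 in Rptor cells and 8.44, 8.23, 8.42 and 8.19 in WT cells. The highest Rptor array lay just below the lowest WT array, and Hsph1 fell by 0.45 ± 0.14 (SE, limma adjusted p = 0.0445). It was 1 of 9 members called, with 0 higher, where 12.5% of all tested genes were called in either direction. Leaving out 1 array at a time moved its adjusted p between 0.0258 and 0.106, and it missed the threshold in 6 of these 8 fits, those without Rptor replicate 1, 2 or 4 or WT replicate 1, 2 or 3. Hspa8 was higher on every Rptor array than on every WT array, at 11.72, 11.70, 11.72 and 11.66 in Rptor cells and 11.62, 11.65, 11.62 and 11.55 in WT cells, but its difference of 0.093 ± 0.081 did not pass (limma adjusted p = 0.525). Hspd1 read 10.19, 10.13, 10.15 and 10.19 in Rptor cells and 10.50, 10.45, 10.39 and 10.08 in WT cells, an overlap through WT replicate 4 (-0.19 ± 0.11, limma adjusted p = 0.304). The other 4 members, Dnajb1, Hsp90aa1, Hspe1 and Hspb1, differed by -0.09 to 0.09 and overlapped. Arrays did not overlap for 2 of 9 members, against 13.9% of tested genes. Of the 8 marker lists, 3 had means that separated the genotypes here, and their part in the Hsph1 value was not tested. The monocyte and macrophage mean was 8.85 to 8.97 in Rptor and 9.75 to 10.1 in WT cells, the erythroid mean 5.59 to 6.29 in Rptor and 4.84 to 5.21 in WT cells, and the myeloid progenitor mean 11.1 to 11.2 in Rptor and 10.70 to 10.98 in WT cells.

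Between GMPs, the progenitors restricted to granulocytes and monocytes, and CMPs, which can still form red cells and platelets, Hspd1 was the member called in both genotypes. Hsp60 folds newly imported proteins in the mitochondrial matrix. In Rptor cells Hspd1 read 9.18, 8.99 and 9.37 in GMPs and 10.02, 10.03 and 9.75 in CMPs. Every GMP array lay below every CMP array, and Hspd1 fell by 0.76 ± 0.13 in Rptor GMPs (SE, limma adjusted p = 0.000136). In WT cells it read 9.25, 9.20 and 8.85 in GMPs and 9.66, 9.74 and 9.79 in CMPs, again with no overlap, and fell by 0.63 ± 0.13 (limma adjusted p = 0.00276). It was 1 of 9 members called in WT cells, with 0 higher, where 11% of tested genes were called. Its partner Hspe1 was not called in either genotype (differences of -0.094 ± 0.12 in Rptor and -0.18 ± 0.12 in WT cells, limma adjusted p = 0.618 and 0.396).

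Hsph1 was lower in Rptor GMPs than in Rptor CMPs by 1.00 ± 0.17 (SE, limma adjusted p = 0.000113), on values already given. This made 2 of 9 members called in Rptor cells, both lower, where 27.9% of tested genes were called. Without Rptor CMP replicate 3, the low array for this gene, the count stayed at 2. In WT cells Hsph1 also lay lower on every GMP array than on every CMP array, but its difference of -0.36 ± 0.17 did not pass (limma adjusted p = 0.191). That SE is pooled over all 6 groups, whereas the WT SDs were 0.012 in GMPs and 0.024 in CMPs. With only the arrays of these 2 groups it passed (limma adjusted p = 0.0143). Hspa1a differed by -0.15 ± 0.63 in Rptor and by 0.48 ± 0.63 in WT cells and overlapped between GMPs and CMPs in both (limma adjusted p = 0.896 and 0.751). The SD of Hspa1a in Rptor cells was 0.15 in GMPs and 0.17 in CMPs, far below this pooled SE. The WT difference of Hspa1a turned with single arrays: it was -0.37 without WT GMP replicate 2, -0.33 without WT CMP replicate 1, 1.27 without WT GMP replicate 1 and 1.397 without WT CMP replicate 2. The order of the group means for Hspa1a was WT GMPs (6.91), WT CMPs (6.43), Rptor Lin- + M-CSF cells (4.30), WT Lin- + M-CSF cells (4.29), Rptor CMPs (3.91) and Rptor GMPs (3.76). WT CMPs and Rptor Lin- + M-CSF cells are the only neighbours in that order whose arrays do not overlap. Arrays of GMPs and CMPs did not overlap for 2 of 9 members in Rptor cells, against 42.2% of tested genes, and for 3 of 9 in WT cells, against 35.2%.

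Lin- + M-CSF cells differed from fresh CMPs in most transcripts, and in sort, culture and cytokine at once, which cannot be told apart. In both genotypes Hsph1, Hsp90aa1 and Dnajb1 fell in the cultured cells. Dnajb1 read 6.79, 7.18, 7.12 and 6.99 in Rptor Lin- + M-CSF cells, against 7.75, 8.17 and 7.75 in Rptor CMPs, a fall of 0.87 ± 0.13 (SE, limma adjusted p = 5.85e-06). In WT cells it read 6.89, 7.10, 7.31 and 6.81 after culture, against 7.78, 7.68 and 7.84 in CMPs, and fell by 0.74 ± 0.13 (limma adjusted p = 4.80e-05). All cultured arrays lay below all CMP arrays of their genotype. Hsp90aa1 read 7.57, 7.70, 7.62 and 7.88 in cultured Rptor cells and 7.55, 7.80, 7.84 and 7.67 in cultured WT cells, again below all CMP arrays. It fell by 0.70 ± 0.10 in Rptor and 0.69 ± 0.10 in WT cells (limma adjusted p = 4.45e-06 and 6.73e-06). Hsph1 fell by 0.93 ± 0.16 in Rptor and 0.78 ± 0.16 in WT cells (limma adjusted p = 2.71e-05 and 0.000227), without overlap in either.

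The Hsp70 pair differed between cultured cells and CMPs in WT cells, through the high and uneven WT CMP values that also enter the genotype comparison. Hspa1a fell by 2.14 ± 0.59 in WT Lin- + M-CSF cells (SE, limma adjusted p = 0.00389) with no overlap. Hspa1b fell by 1.32 ± 0.44 (limma adjusted p = 0.0137), with WT Lin- replicate 3 (5.50) above the lowest WT CMP array (5.19). Since the members were selected on Hspa1a values that include these WT CMP arrays, these p-values are not independent of the selection. Without WT CMP replicate 2 neither passed: the difference was -1.22 for Hspa1a and -0.90 for Hspa1b (limma adjusted p = 0.0597 and 0.118). In Rptor cells the pair differed by 0.39 ± 0.59 and 0.43 ± 0.44, and neither passed (limma adjusted p = 0.602 and 0.416). These SEs too are pooled over all groups, the uneven WT progenitors included.

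The mitochondrial pair ran the other way in WT cells. Hspd1 was higher by 0.62 ± 0.12 in WT Lin- + M-CSF cells than in WT CMPs (SE, limma adjusted p = 0.000156), with no overlap. Hspe1 read 9.87, 9.61, 9.88 and 9.65 in WT Lin- + M-CSF cells, against 9.31, 9.51 and 9.65 in WT CMPs, and was higher by 0.26 ± 0.11 (limma adjusted p = 0.0450) with some overlap. That call was lost in several alternatives, among them the fit of the 2 groups alone (limma adjusted p = 0.0951) and leaving out WT CMP replicate 1 or 2 or WT Lin- replicate 1 or 3 (limma adjusted p of 0.0811 to 0.242). In Rptor cells Hspd1 was higher on all cultured arrays by 0.23 ± 0.12 and Hspe1 by 0.098 ± 0.11, and neither passed (limma adjusted p = 0.113 and 0.466). In all, 3 of 9 members were called in Rptor cells, 0 higher and 3 lower, where 56.3% of tested genes were called. In WT cells 7 of 9 were called, 2 higher and 5 lower, where 55.6% were called. The 7 include Hspa1a and Hspa1b, whose calls are not independent of the selection of the members. The median difference over members was 0.098 in Rptor and -0.69 in WT cells, and over all tested genes -0.12 in Rptor and -0.14 in WT cells. Arrays did not overlap for 5 of 9 members in each genotype, against 56% of tested genes in Rptor and 55.1% in WT cells.

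**Figure D3:**
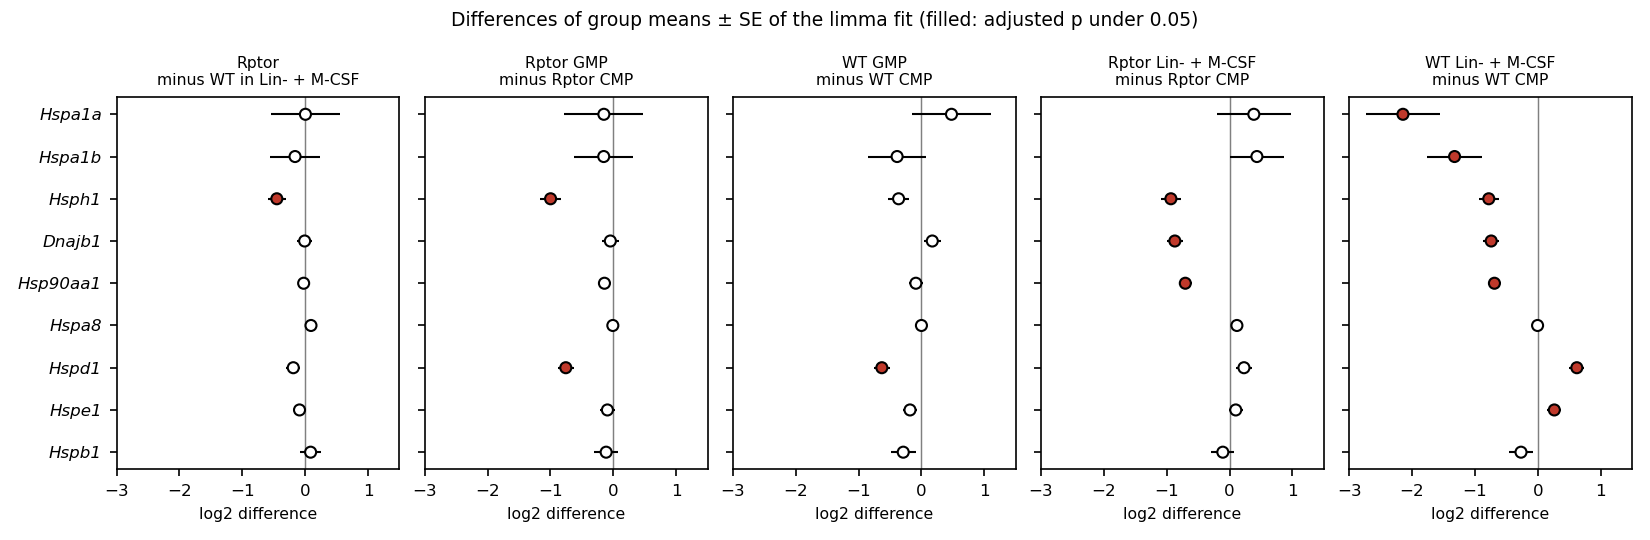
Differences of group means (x axis, log2 units, first group minus second as each panel's title says) for the 9 members (y axis) in the 5 tested comparisons, with bars of ± 1 SE of the limma fit. Filled points have an adjusted p under 0.05: Hsph1 among Lin- + M-CSF cells, Hspd1 in both GMP panels with Hsph1 in Rptor cells, and 3 (Rptor) and 7 (WT) members in the panels of cultured cells.

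Hspa8 looks flat or steeply different depending on the probe set. It is the constitutive Hsp70 that also strips clathrin from vesicles. The probe set of highest mean, used above, read 11.4 to 11.7 on all 20 arrays. The other 3 probe sets of the same symbol read 12.6 to 12.7, 12.6 to 12.7 and 10.7 to 10.9 in Lin- + M-CSF cells of both genotypes, against 8.18 to 8.53, 8.19 to 8.52 and 6.78 to 7.15 in CMPs. Their differences in WT cells were 4.28 ± 0.08, 4.27 ± 0.08 and 3.99 ± 0.11 (SE), with limma adjusted p-values of 3.57e-19, 3.57e-19 and 2.99e-17 over 17641 probe sets tested on their own. The used probe set differed by -0.0022 ± 0.088 (limma adjusted p = 0.987). Only 0.505% of the 17641 probe sets were higher in the cultured cells by more than 4 log2 units in that comparison. The Hspa8 probe set at 3.99 did not reach that mark. None of the 4 separated the genotypes in the cultured cells by the test (limma adjusted p of 0.528 to 0.886). In GMPs, the 2 probe sets that read 12.6 to 12.7 in culture were lower on every Rptor than on every WT array. Their differences there were -0.11 and -0.12, in a comparison where arrays of 32.4% of tested genes did not overlap. These 2 probe sets read nearly alike on each of the 20 arrays and may not be separate readings. Which transcripts each probe set reads was not examined, and the level of Hspa8 in cultured cells is uncertain here.

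**Figure D4:**
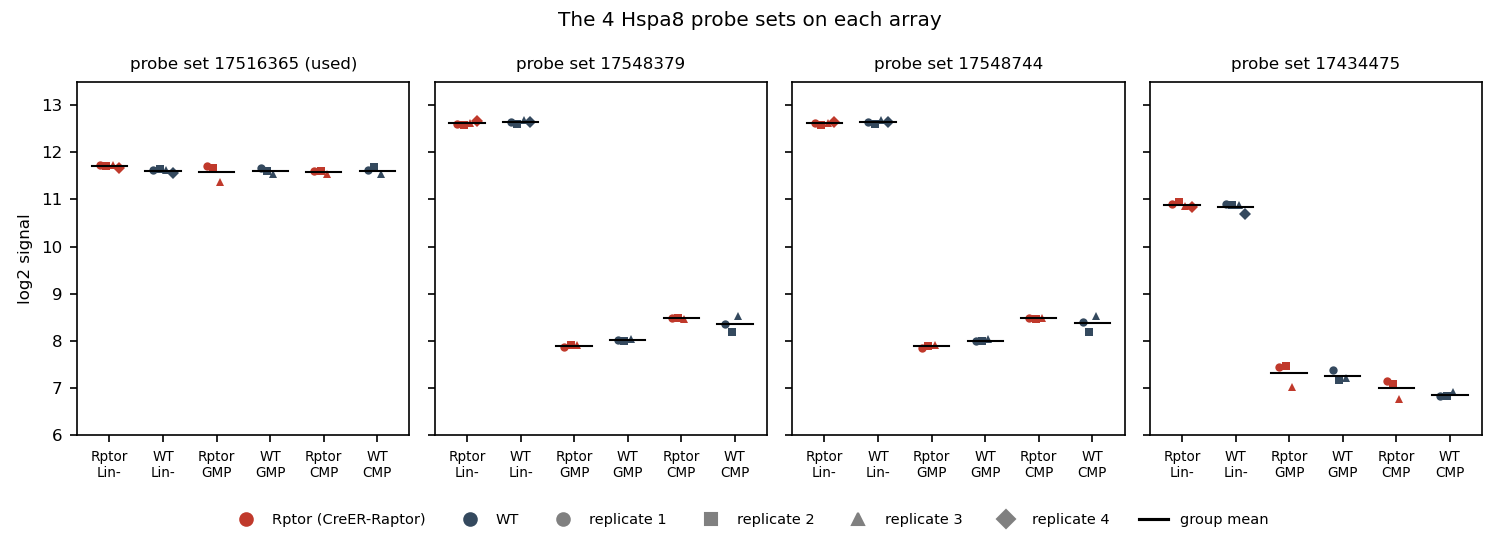
The log2 signal (y axis) of the 4 probe sets annotated to Hspa8 on each array, by group (x axis; Rptor red, WT dark blue; shapes are replicate numbers, black lines group means). The used probe set stays near 11.6 everywhere, whereas the other 3 stand about 4 units higher in Lin- + M-CSF cells than in fresh progenitors of either genotype.

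Hspb1, which holds unfolded proteins until Hsp70 takes them over, also had 2 probe sets that disagreed. The used one was not called in any tested comparison. The other read 4.31, 4.09, 4.48 and 4.46 in Rptor Lin- + M-CSF cells and 4.63, 4.37, 4.66 and 4.30 in WT Lin- + M-CSF cells, and was higher than in CMPs by 0.35 ± 0.13 in Rptor and 0.41 ± 0.13 in WT cells (SE, limma adjusted p = 0.0322 and 0.0130). Both probe sets stayed at low levels, between 3.64 and 4.89 over the 20 arrays.

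Of 18 other listed heat shock factors and heat-inducible chaperones, 15 were tested, and in fresh progenitors the share called between genotypes was near that of all genes. Among Rptor GMPs 1 was lower and 0 higher than in WT, where 7.53% of all tested genes were called lower and 4.37% higher: Hsf2, a second heat shock factor, fell by 0.89 ± 0.15 (SE, limma adjusted p = 0.000433). Among Rptor CMPs 1 was higher and 0 lower, where 6.01% of all tested genes were called higher and 5.44% lower: Dnajb4, an Hsp40, rose by 0.38 ± 0.10 (limma adjusted p = 0.0126). The list's median difference was -0.12 in GMPs and -0.13 in CMPs, against 0.016 and -0.010 over all tested genes. In Lin- + M-CSF cells, where 5.73% of all tested genes were called lower, 4 of 15 were lower in Rptor than in WT cells and 0 higher. Bag3, the Hsp70 co-chaperone that steers clients to autophagy, fell by 0.35 ± 0.08 (limma adjusted p = 0.00678), with 7.21, 7.26, 7.20 and 7.04 in Rptor and 7.62, 7.48, 7.41 and 7.59 in WT cells. Hsf2 fell by 0.47 ± 0.13 (limma adjusted p = 0.0256). The small heat shock protein gene Cryab, called at an adjusted p of 0.0468 by limma, was uneven in WT cells, at 3.97, 4.21, 4.15 and 3.97 in Rptor and 4.97, 4.17, 4.22 and 6.05 in WT cells, and the groups overlapped. The fourth was Ahsa1, which stimulates Hsp90 and is named after its values were seen (-0.29, limma adjusted p = 0.0497).

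Co-chaperones and subunits of the cytosolic chaperonin were both listed. Of 13 co-chaperones tested, 0 were called between genotypes in GMPs or CMPs, against 11.9% and 11.4% of all tested genes, and 1 in Lin- + M-CSF cells, against 12.5%. There the nucleotide exchange factor Hspbp1 fell by 0.30 ± 0.09 (SE, limma adjusted p = 0.0340). Between Lin- + M-CSF cells and CMPs, 4 were higher and 3 lower in Rptor cells, and 4 higher and 4 lower in WT cells, where 56.3% and 55.6% of all tested genes were called. Ptges3, the Hsp90 co-chaperone p23, was higher by 2.51 ± 0.17 in Rptor and 2.84 ± 0.17 in WT cells (limma adjusted p = 5.21e-11 and 1.09e-11), while the Hsp70-Hsp90 adaptor Stip1 of the heat-inducible list fell by 1.03 ± 0.09 in Rptor and 0.90 ± 0.09 in WT cells (limma adjusted p = 3.19e-09 and 3.08e-08). Of the 8 subunits of the cytosolic chaperonin, which folds actin and tubulin, 0 were called between genotypes in any population. In GMPs against CMPs 5 of the 8 were lower and 0 higher in each genotype, where 15.4% of tested genes were called lower in Rptor and 4.35% in WT cells. Cct4 fell by 0.53 ± 0.11 in Rptor and 0.46 ± 0.11 in WT GMPs (limma adjusted p = 0.00118 and 0.0106).

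Most of the other mitochondrial chaperones and proteases listed were lower in cultured cells, where Hspd1 was not. Of 8 tested, 6 were lower and 0 higher in Lin- + M-CSF cells than in CMPs in each genotype, where 34.9% of tested genes were called lower in Rptor and 36% in WT cells. Grpel1, which exchanges nucleotides on mitochondrial Hsp70, fell by 1.29 ± 0.13 in Rptor and 1.15 ± 0.13 in WT cells (SE, limma adjusted p = 2.45e-08 and 1.66e-07). The protease subunit Clpp fell by 1.31 ± 0.12 in Rptor and 1.29 ± 0.12 in WT cells (limma adjusted p = 6.19e-09 and 1.05e-08). The mitochondrial Hsp70 gene Hspa9 and Clpx were not called. Hspa9 differed by -0.017 ± 0.14 in Rptor and 0.26 ± 0.14 in WT cells (limma adjusted p = 0.925 and 0.11). Clpx differed by -0.25 ± 0.13 in Rptor and -0.049 ± 0.13 in WT cells (limma adjusted p = 0.1045 and 0.770). In Rptor GMPs against CMPs 4 of the 8 were lower and 1 higher, where 15.4% of tested genes were called lower and 12.5% higher. In WT cells 1 was lower and 0 higher, where 4.35% were called lower and 6.65% higher. Hspa9 was lower in both, like Hspd1, by 0.80 ± 0.15 in Rptor and 0.59 ± 0.15 in WT cells (limma adjusted p = 0.000274 and 0.0112). Clpp was higher in Rptor GMPs, by 0.40 ± 0.13 (limma adjusted p = 0.022). Between genotypes 0 of the 8 were called in GMPs or Lin- + M-CSF cells and 1 in CMPs, the protease gene Afg3l2, which rose by 0.43 ± 0.12 in Rptor cells (limma adjusted p = 0.0220).

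Among 16637 tested genes ranked by likeness to Hspa1a, Hspa1b came second over the deviations of the 12 GMP and CMP arrays from their group means (Pearson's r = 0.955) and first over the log2 levels of all 20 arrays (r = 0.924). These correlations describe arrays that share their libraries with the genes compared, and Hspa1a deviates most on the second and first WT arrays. Over the deviations, the 8 most similar genes outside the list were Esrra (r = 0.959), Calml4 (0.940), Gm21082, Ldoc1, Gja5, Lrrc38, Cxcl2 and Scgn (0.882). The deviations of Esrra had an SD of only 0.091 log2 units, whereas Calml4 read 5.44, 6.65 and 5.78 in WT GMPs and 5.65, 6.76 and 5.77 in WT CMPs, high on the same second arrays. Over the levels of all arrays they were 1700012B09Rik (r = 0.832), Vdr (0.820), Gas2l3, Sntb1, Gm17745, Tmem229b-ps, 5031439G07Rik and Otos (0.776). The other members had lower values: over the deviations r was 0.438 for Hspb1, 0.425 for Hspe1, 0.374 for Hsp90aa1, 0.067 for Hspd1, -0.0018 for Hspa8, -0.063 for Hsph1 and -0.078 for Dnajb1.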

How the data were processed

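The deposited values are log2 signals of 41345 probe sets on 20 arrays, ranging from 1.77 to 13.2. Per the submitters' processing notes, RMA, Partek 6.6 and limma were used, with roles and order not given in the sources used here, nor whether all arrays were normalized together. RMA removes changes shared by most transcripts. Without scanner files, detection above background could not be assessed here. In the platform annotation 23521 probe sets had 1 symbol, 1814 several and 16010 none here; Entrez identifiers of 23328 were found in RefSeq (GRCm38.p6) and 193 were not.

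Each gene was represented by its probe set of highest mean, and those whose mean reached the 25th percentile (log2 3.86) entered the test. limma 3.58.1 in R 4.3.3 fitted 1 mean for each of 6 groups over all 20 arrays (14 residual degrees of freedom), with Benjamini-Hochberg adjustment over 16638 genes and a gene called at an adjusted p under 0.05. The fit was tested on simulated data. The number of arrays limits the precision. Each gene has 1 residual spread, pooled over the 6 groups. Its SE need not match the spread of the 2 groups compared. Members and gene lists were chosen with earlier results of these data known. Named besides all members were up to 3 called genes of smallest p per list and comparison and the 8 genes most like Hspa1a by each of 2 measures; of these the text gives examples. Fosb is of the first kind.

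Alternatives were a filter at the 50th percentile or none, other choices of probe set, other normalizations, array weights, a trended and robust fit, only the groups compared, the replicate number as a block, and leaving out each array. Python 3.11.15 and matplotlib 3.10.9 drew the figures.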

Additional observations from a re-analysis of the deposited data

Results flagged for a closer look

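Hspa1a on Rptor Lin- + M-CSF replicate 3 read 3.895, below the other arrays of its group (4.408, 4.434 and 4.443), a gap of 0.937 of the group's range, past the 95% limit of Dixon's test for 4 values. Hsph1 on the same array read 8.132, above the others (7.758, 7.760 and 7.818), a gap of 0.839 of the range. These are 2 of 18 groups of 4 arrays examined, where chance alone marks about 1 in 20. Outside the probe sets used for the comparisons, the other 3 Hspa8 probe sets were higher in WT Lin- + M-CSF cells than in WT CMPs by 4.282, 4.273 and 3.985 log2 units, whereas the used one differed by -0.0022.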

How the results depend on the processing

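Over the alternatives run, 727 of 759 differences of members stayed on their side of the threshold, 7 gained a call and 22 lost one. Another 3 turned in sign with a call before or after. The 727 include uncalled differences that changed sign, such as that of Hspa1a between WT GMPs and WT CMPs. Of 86 counts, 71 stayed within 1.5 times. The call of Hsph1 between genotypes in Lin- + M-CSF cells was lost, leaving 0 members, with array weights (adjusted p = 0.127), arrays centred on their median (0.0519), no filter (0.0532), only the 2 groups' arrays (0.0510) and the replicate block (0.0523), all from limma; leaving out each array gave 0 to 1. The replicate block changed no other count. Of the 46 same-numbered pairs of arrays, whose deviations correlated between -0.344 and 0.185, 4 passed 0.1, so the numbers were not taken to pair the samples. Between WT GMPs and WT CMPs the count was 2 with array weights, with only the 2 groups' arrays (both adding Hsph1) and with the second highest Hspa8 probe set, an alternative chosen after seeing the data. Between WT Lin- + M-CSF cells and WT CMPs leaving out each array gave 4 to 8, with 4 without WT CMP replicate 2. With that second Hspa8 probe set, Hspa8 differed from WT CMPs by -0.34 in WT GMPs and by 4.28 in WT Lin- + M-CSF cells, and by 3.13 when its probe sets were averaged; the used one gave 6.67e-05 and -0.0022. The cause of these changes was not tested, other than that fewer arrays or another probe set enter by construction. Dim members, Hspa1a, Hspa1b and Hspb1, have levels close to the filter, and their signal over background was not assessed.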

Other observations

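Immediate early genes, which respond within minutes to growth factors, were listed beside the heat shock genes, and all 16 were tested. Between Rptor and WT GMPs 3 were higher and 2 lower, where 4.37% of all tested genes were called higher and 7.53% lower. Between Rptor and WT CMPs 1 was higher and 2 lower, where 6.01% were called higher and 5.44% lower. They did not move one way: Junb rose by 0.93 ± 0.12 in Rptor GMPs and 0.58 ± 0.12 in Rptor CMPs (SE, limma adjusted p = 1.96e-05 and 0.00263), while Fosb fell by 1.32 ± 0.30 and 1.20 ± 0.30 (limma adjusted p = 0.00530 and 0.0102) and Fosl2 by 0.93 ± 0.20 and 0.80 ± 0.20 (limma adjusted p = 0.00339 and 0.0106). In Lin- + M-CSF cells 3 were higher and 0 lower in Rptor than in WT cells, where 6.82% were called higher and 5.73% lower: Nr4a1 (0.99 ± 0.17, limma adjusted p = 0.000386), Egr2 (0.64 ± 0.11, limma adjusted p = 0.000452) and Egr3 (0.47 ± 0.10, limma adjusted p = 0.00227). A probe set annotated to both Snord14e and Hspa8 read 8.91 to 10.4 over the 20 arrays and was used in no comparison.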
